A study of Mus musculus with 6 samples.

Results

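Genes for the constitutive proteasome were described in mouse embryonic fibroblasts (MEFs) with and without the mitochondrial protease YME1L. The members were all loci of the count table with a symbol of the Psma, Psmb, Psmc, Psmd, Psme, Psmf or Psmg series, without the immunoproteasome genes Psmb8, Psmb9 and Psmb10, and with the inhibitor gene Psmf1 kept. Loci were included by symbol and not by their values, but the list was chosen with earlier results of these data known. The list held 46 loci with 45 symbols among 51499 loci in the table. Of these 46 loci, 43 were among the 13867 loci with enough counts to be tested. The study compared WT MEFs, labelled Yme1l fl/fl, with Yme1l-/- MEFs, 3 cultures each, by poly(A) RNA sequencing. All cells carried SV40 large T antigen for immortalization and descended from MEFs with floxed Yme1l alleles. According to the study's methods, cells were exposed to Cre recombinase and expanded as individual clones, which were genotyped to find WT and Yme1l-/- lines, so that differences between clones and effects of the genotype cannot be told apart. The labels give no treatment, and they do not say whether several clones were used per genotype.

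The proteasome degrades proteins that carry ubiquitin chains. Its barrel-shaped core, the 20S particle, has outer rings of alpha subunits, which form the gate, and inner rings of beta subunits, of which PSMB5, PSMB6 and PSMB7 hold the active sites. The 19S particle caps the core, and its ATPases (PSMC) unfold substrates while its non-ATPase subunits (PSMD) bind and remove ubiquitin. The activator PA28, built from PSME1 and PSME2, opens the core without ubiquitin, and its genes, like those of the immunoproteasome subunits, are known to respond to interferon in many cell types.

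The libraries held between 33180867 and 49351107 counted fragments. The targeted gene Yme1l1 went from 188.7 ± 5.16 CPM (SD, n = 3; CPM, fragment counts scaled to equal library sizes) in WT to 39.1 ± 1.34 CPM (SD, n = 3) in Yme1l-/- MEFs. Of the fibroblast markers, Col1a1 was at 1506 to 1675 CPM in WT and 2104 to 2306 CPM in Yme1l-/- libraries and was called higher. Col1a2 (1670 to 1754.5 and 1047 to 1099.8 CPM) and Vim (2504 to 2730.5 and 1009.7 to 1085 CPM) were called lower. Pdgfrb (log2 fold change -0.33) and Col3a1 (-2.48) were called lower too. Col3a1 was uneven in WT, at 86.3, 301.2 and 91.1 CPM, and at 27.4 to 29.6 CPM in Yme1l-/- libraries. Pdgfra was not called (-0.38), and Thy1 and Fap had at most 10 fragments in any library. The summed level of the 8 fibroblast markers was 6078 to 6299 CPM in WT and 4291 to 4517 CPM in Yme1l-/- libraries. Of the markers of blood cells, which carry much immunoproteasome and PA28, Adgre1 and Cd3e were at 0 and Ptprc had at most 1 fragment per library. Cd68 was at 1.68 to 1.84 CPM in WT and 3.46 to 3.91 CPM in Yme1l-/- libraries and was called higher (edgeR log2 fold change 1.04, adjusted p 4.83e-05). The summed level of the epithelial markers was between 32.9 and 34.9 CPM in WT, nearly all of it Krt18, and at most 0.657 CPM in Yme1l-/- libraries, where Krt18 was at most 0.0589 CPM, and that of the endothelial markers was 0.888 to 1.44 CPM in WT and 1.67 to 2.00 CPM in Yme1l-/- libraries. The part of these markers in the results was not tested. Since RNA was taken from whole cultures, fewer cells of a kind and less RNA per cell cannot be told apart.

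The proteasome genes as a group stayed close to their WT level, and a few of them moved by a factor of about 2. Of the 43 tested members, 17 were called higher in Yme1l-/- MEFs, 10 were called lower and 16 were not called (edgeR, Benjamini-Hochberg adjusted p under 0.05 over all tested loci). Of all tested loci 67.7% were called in either direction, 33.6% higher and 34.1% lower, beside 39.5% of members called higher and 23.3% called lower, a difference that was not tested. Without Yme1l-/- replicate 1 the members called lower numbered 15 of 43. Under upper-quartile scaling the counts were 22 higher and 7 lower. The genotypes did not overlap, with Yme1l-/- above WT, for 17 members, and with Yme1l-/- below WT for 11, against 35.9% and 36.0% of all tested loci. The median log2 fold change (Yme1l-/- over WT) of the members was 0.08, beside -0.00 for all loci. Their interquartile range was -0.11 to 0.25, and that of all loci was -0.36 to 0.41. A rise of at least 2-fold was called for 4 members (9.1% of all tested loci) and a fall of at least 2-fold for 0 members (8.63% of all tested loci). Those 4 were Psme2, Psme1, Psmb6 and Psmg4. Better expressed loci, 5155 in number, averaged 50 CPM or higher in WT or Yme1l-/- MEFs. Of these, 32.7% were called higher and 44.2% lower, and their interquartile range was -0.36 to 0.25. At least 2-fold rises were called for 152 of the 5155 loci, and at least 2-fold falls for 209. Psmg4 averaged 7.69 CPM in WT and 15.5 CPM in Yme1l-/- MEFs and was not among them. Psme1 (47.2 CPM in WT and 102.6 CPM in Yme1l-/- MEFs) and Psme2 (26.2 and 70.5 CPM) passed this filter only through their Yme1l-/- level. The counts of the 5155 loci are therefore no independent background for the rises of Psme1 and Psme2. Differences between the members and the 5155 loci were not tested.

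**Figure D1:**
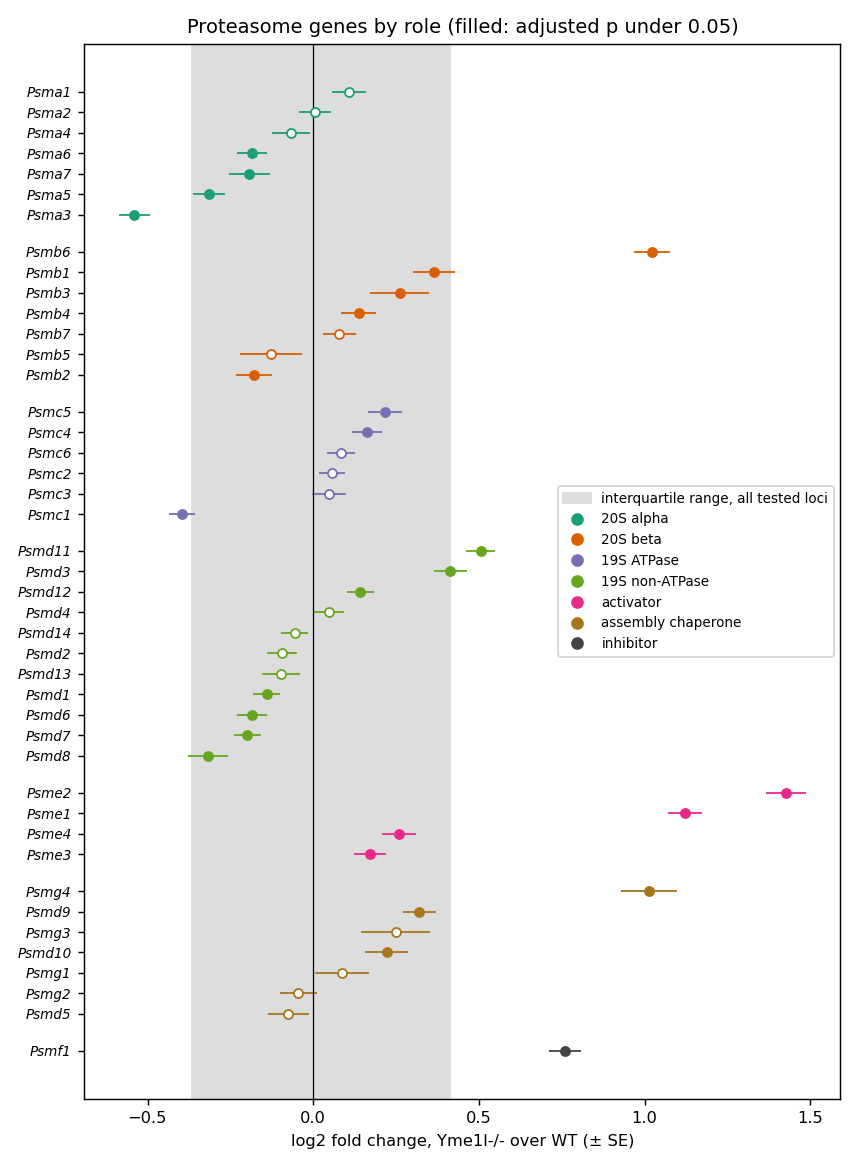
Log2 fold change (Yme1l-/- over WT, ± SE) of the 43 tested proteasome genes, grouped by role, with filled points for an adjusted p under 0.05 and grey shading for the interquartile range of all tested loci (-0.36 to 0.41). Most members lie within the shading, whereas Psme2, Psme1, Psmb6, Psmg4, Psmf1, Psmd11 and Psmd3 lie to its right and Psma3 and Psmc1 to its left.

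The PA28 genes Psme1 and Psme2 had the largest increases of all members. Psme1, which encodes PA28 alpha (GRCm38 chr14:55578123-55585302), was at 45.2, 49.9 and 46.4 CPM in the WT libraries (replicates 1 to 3) and at 105.6, 100.01 and 102.2 CPM in the Yme1l-/- libraries. Psme2, which encodes PA28 beta (chr14:55587441-55591113), was at 26.2, 27.6 and 24.8 CPM in WT and at 75.3, 67.5 and 68.6 CPM in Yme1l-/- libraries. For both genes every Yme1l-/- library lay above every WT library by far more than the spread between libraries of a genotype. The log2 fold changes were 1.12 ± 0.05 (SE; 2.17-fold, edgeR adjusted p 7.79e-09) for Psme1 and 1.43 ± 0.06 (SE; 2.69-fold, edgeR adjusted p 4.33e-09) for Psme2. Their fold changes exceeded those of 92.2% and 94.2% of all tested loci. Psme2b, a gene nearly identical to Psme2, was counted in a chromosome 11 locus merged with 9930111J21Rik1. This locus rose by 1.14 ± 0.07 (log2 fold change ± SE), and by 0.79 with chromosome medians removed. Its rise cannot be assigned to either of the merged genes, and fragments may have been exchanged between Psme2 and Psme2b.

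Set against the other members in the same library, the PA28 genes changed their place. The mean log2 CPM of Psme1 and Psme2 minus that of the other 41 tested members was -1.94, -1.78 and -1.88 in the WT libraries. In the Yme1l-/- libraries it was -0.681, -0.693 and -0.655. The difference between genotypes in this log2 distance was 1.19, while the mean of the other members differed by 0.0857 on the log2 scale. The other 41 members had a median log2 fold change of 0.06. Of them 15 were called higher and 10 lower, against 33.6% and 34.1% of all tested loci. Log2 ratios within libraries were compared between the genotypes for 5 gene pairs by a two-sided exact permutation test. Its smallest p with 3 against 3 libraries is 0.1, so no pair could be called by it, whatever the difference. Psme2 over Psme1 was higher by 0.31 in Yme1l-/- libraries, with no overlap between the genotypes (p = 0.1 by the exact test, adjusted p = 0.125 over the 5 pairs). Psme1 over Psme3 was higher by 0.95 and Psme2 over Psme3 by 1.26 on the log2 scale, both without overlap and at the same p. Psme2 over Psmb6 was higher by 0.40, also at that p, whereas for Psme1 over Psmb6 the difference of 0.10 was within the spread between WT libraries (exact permutation p = 0.2, adjusted p = 0.2).

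The promoter windows of the 4 genes with a rise of at least 2-fold are shown because interferon-responsive genes often carry the interferon-stimulated response element (ISRE) near their start. Each window holds 250 bases before and 50 bases after a RefSeq transcript start (GRCm38.p6), written on the strand of the gene. Capitals mark a match to the ISRE core (GAAA, any 2 bases, GAAA, on either strand) in Psme1 and Psmg4, and to the antioxidant response element core TGACNNNGC (on either strand) in Psmb6. No capitals stand in Psme2, whose window held no match. For Psme2 the more upstream of a pair of overlapping windows is shown.
Psme1, chr14:55578244-55578543, plus strand: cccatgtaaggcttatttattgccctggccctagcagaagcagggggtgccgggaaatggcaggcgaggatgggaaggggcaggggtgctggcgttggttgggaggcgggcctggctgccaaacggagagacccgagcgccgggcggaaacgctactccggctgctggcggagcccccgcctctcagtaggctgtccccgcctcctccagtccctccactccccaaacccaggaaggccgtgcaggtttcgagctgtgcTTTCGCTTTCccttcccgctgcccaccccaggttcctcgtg
Psme2, chr14:55591052-55591351, minus strand: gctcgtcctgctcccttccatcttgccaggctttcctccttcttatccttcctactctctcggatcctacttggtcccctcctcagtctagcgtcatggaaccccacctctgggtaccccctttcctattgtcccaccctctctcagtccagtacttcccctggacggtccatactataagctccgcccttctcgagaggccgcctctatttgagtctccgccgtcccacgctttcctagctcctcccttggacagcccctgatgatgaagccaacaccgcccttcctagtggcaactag
Psmg4, chr13:34162714-34163013, plus strand: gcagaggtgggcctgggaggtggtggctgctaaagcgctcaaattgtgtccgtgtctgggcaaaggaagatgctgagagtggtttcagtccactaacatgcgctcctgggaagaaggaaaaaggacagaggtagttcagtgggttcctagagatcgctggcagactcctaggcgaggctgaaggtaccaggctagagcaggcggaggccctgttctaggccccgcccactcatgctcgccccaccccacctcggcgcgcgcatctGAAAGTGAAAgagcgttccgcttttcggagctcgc
Psmb6, chr11:70525107-70525406, plus strand: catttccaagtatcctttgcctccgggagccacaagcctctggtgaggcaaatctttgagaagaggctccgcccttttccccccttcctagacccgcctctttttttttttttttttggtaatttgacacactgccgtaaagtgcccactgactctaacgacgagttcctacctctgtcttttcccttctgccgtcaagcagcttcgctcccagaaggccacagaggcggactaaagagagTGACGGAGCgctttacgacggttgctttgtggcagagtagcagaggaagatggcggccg

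Windows were found for 36 of the 43 tested members. Windows for Psmb1, Psmb2, Psmb7, Psmc3, Psmd3, Psmd7 and Psmg2 were not analysed here. The ISRE core was found in 5 of the 39 windows of these members, against 1131 (3.44%) of all 32851 windows. It lay in windows of 5 members, and this difference in share was not tested. In Psme1 it began 10 bases into the transcript as TTTCGCTTTC, the reverse strand of the core, and in Psmg4 it began 16 bases into the transcript as GAAAGTGAAA. The others were Psmd9 (GAAAAAGAAA), Psmb3 (TTTCACTTTC) and Psmd4 (TTTCCATTTC). Of these 5 genes, 4 were called higher, against 33.6% of all tested loci, and Psmd4 was not called (0.05 ± 0.05, log2 fold change ± SE). With chromosome medians removed the call of Psmb3 was lost (-0.10) and Psmd4 was called higher (0.17). Neither Psme2 window held the core, nor did either hold the STAT-binding pattern TTCNNNGAA. This pattern was found in 2 of the 39 member windows, those of Psmd2 and Psmg1, against 8.3% of all windows. Psmd2 and Psmg1 were not called. Outside the members, Psmb8, with a log2 fold change of 3.43, had a match to this pattern (TTCCCAGAA) and none to the ISRE core. The antioxidant response element core TGACNNNGC was found in 6 of the 39 member windows, against 12.4% of all windows. These were windows of 6 members (Psmb5, Psmb6, Psmc6, Psmd9, Psmd12 and Psme4). In all of these but Psmc6 a G preceded the core, which was so in 4.3% of all windows. The differences in share were not tested. Of the 6 genes, 4 were called higher, against the same 33.6%, and Psmb5 and Psmc6 were not called. Among the 4, Psmb6, Psmd12 and Psme4 lie on chromosome 11, and with chromosome medians removed Psmd12 was called lower (-0.21), Psme4 was not called (-0.10) and Psmc6 was called higher (0.25). A match to these letters is a description of the sequence and was not tested as a binding site.

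No tested alpha subunit gene of the 20S core was called higher in this fit. Of 7 tested alpha genes, 4 were lower, against 34.1% of all tested loci, and 3 were not called. The median log2 fold change of the 7 genes was -0.19. Psma3, which encodes the alpha7 subunit, was at 209.7, 195.4 and 195.4 CPM in the WT libraries and at 143.8, 135.0 and 134.4 CPM in the Yme1l-/- libraries. The genotypes did not overlap, and Psma3 fell by 31.2%, with a log2 fold change of -0.54 ± 0.05 (SE, edgeR adjusted p 1.5e-06), the lowest among the members. Psma5 (alpha5) fell by 19.6%, from 105.3 ± 4.77 to 84.6 ± 2.26 CPM (SD, n = 3; edgeR adjusted p 0.000145). Psma6 (-0.19 ± 0.05) and Psma7 (-0.19 ± 0.06, log2 fold change ± SE) were called lower by smaller amounts. The libraries of Psma7 overlapped between the genotypes, and its call was lost under upper-quartile scaling and without WT replicate 1 or Yme1l-/- replicate 2 or 3. Psma2 (0.01 ± 0.05), Psma1 (0.11 ± 0.05) and Psma4 (-0.07 ± 0.06, log2 fold change ± SE) were not called. Psma1 was called higher under upper-quartile scaling (0.17), in a fit blocked by replicate (0.11) and without WT replicate 1 (0.14). With chromosome medians removed, Psma4 (0.29) and Psma6 (0.26) were called higher, and the call of Psma3 was lost (-0.10). Psma5 (-0.20) and Psma7 (-0.17) remained called lower in that fit. Psma8, a testis-specific alpha subunit gene, had 2 fragments in WT replicate 3 and none in the other libraries and was not tested.

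Among the beta subunits, Psmb6 stood apart. Psmb6 encodes the subunit with caspase-like activity (chr11:70525367-70527858) and was at 158.0, 146.3 and 143.3 CPM in the WT libraries and at 322.4, 290.0 and 297.6 CPM in the Yme1l-/- libraries. The libraries did not overlap, and the log2 fold change was 1.02 ± 0.05 (SE; 2.03-fold, edgeR adjusted p 2.6e-08). The annotation also holds processed pseudogenes of Psmb6, with which fragments may have been exchanged. The genes of the remaining active sites were not called in this fit. Psmb5, for the chymotrypsin-like site, was at 129.3, 118.3 and 122.2 CPM in WT and at 132.3, 105.0 and 101.6 CPM in Yme1l-/- libraries. These libraries overlapped, and the log2 fold change of -0.13 ± 0.09 (SE) was not called (edgeR adjusted p 0.26), but Psmb5 was called lower without Yme1l-/- replicate 1, at -0.25, and in a fit blocked by replicate, at -0.13. Psmb7, for the trypsin-like site, was at 189.6 ± 7.99 CPM in WT and 200.4 ± 9.36 CPM in Yme1l-/- MEFs (SD, n = 3), and its difference of 0.08 ± 0.05 (log2 fold change ± SE) was not called, but under upper-quartile scaling Psmb7 was called higher, at 0.14. Of the structural beta subunits, Psmb1 rose by 28.7% (log2 fold change 0.36 ± 0.06, SE), and Psmb3 (0.26 ± 0.09) and Psmb4 (0.14 ± 0.05, log2 fold change ± SE) were called higher. The call of Psmb3 was lost without WT replicate 2 or 3, and that of Psmb4 without these or Yme1l-/- replicate 1 or 2. Psmb2 was called lower, at -0.18 ± 0.05 (SE), and this call was lost under upper-quartile scaling and without WT replicate 1 or Yme1l-/- replicate 2 or 3. Psmb11, which encodes a subunit of the thymus, had between 1 and 8 fragments per library and was not tested.

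**Figure D2:**
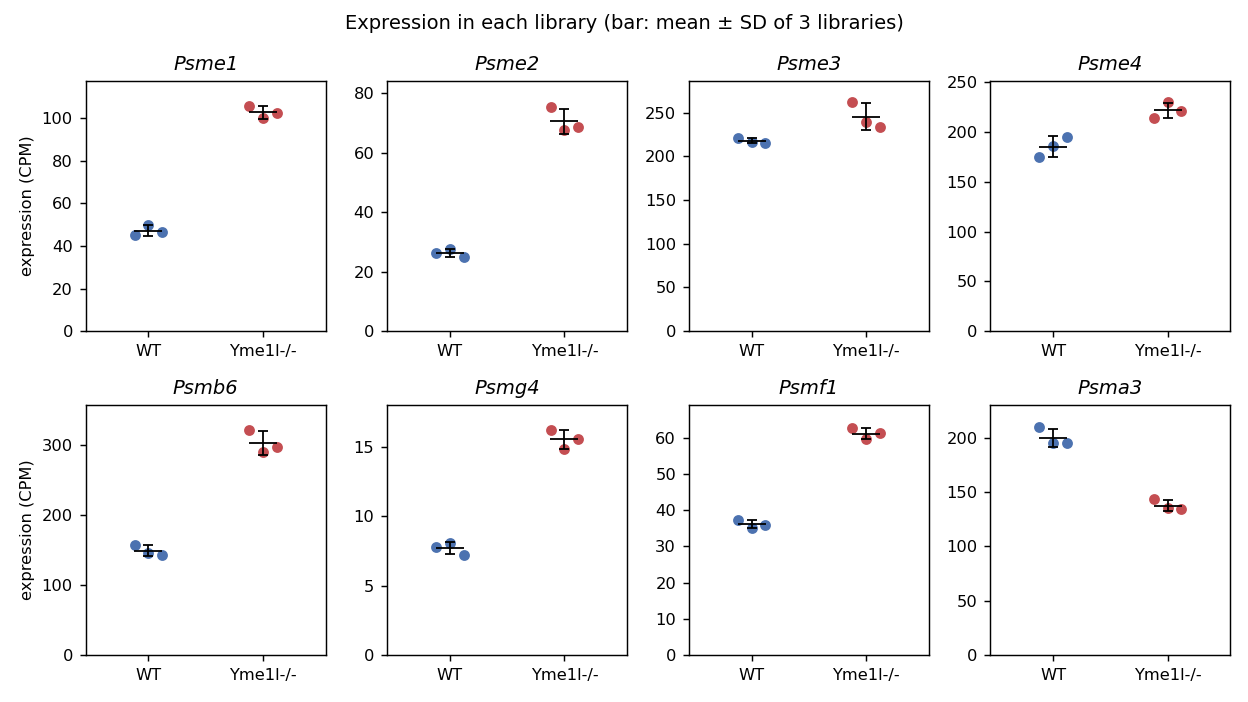
Expression in CPM of 8 proteasome genes in each of the 6 libraries, with the mean ± SD of the 3 libraries of a genotype. Yme1l-/- libraries lie above all WT libraries for the activators (Psme1 to Psme4), Psmb6, Psmg4 and Psmf1, and below them for Psma3.

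The 19S particle moved both ways by small amounts. Of 6 ATPase genes, 2 were higher and 1 was lower, against 33.6% and 34.1% of all tested loci. The values of the ATPase genes lay between -0.39 and 0.22 on the log2 scale. Psmc1 (Rpt2) fell by 23.9%, from 226.5 ± 4.97 to 172.3 ± 1.33 CPM (SD, n = 3; edgeR adjusted p 4.3e-06), without overlap between the libraries. Psmc5 (Rpt6) and Psmc4 (Rpt3) were higher, at log2 fold changes of 0.22 ± 0.05 and 0.16 ± 0.05 (SE). Psmc3, at 0.05 ± 0.05 (log2 fold change ± SE), was not called. Of 11 non-ATPase subunit genes, 3 were higher and 4 were lower, against the same 33.6% and 34.1%. The median log2 fold change of these 11 genes was -0.09. Psmd11 (Rpn6), which helps to join the base and the lid, rose by 42.0%, from 151.6 ± 3.56 to 215.2 ± 8.01 CPM (SD, n = 3; edgeR adjusted p 1.4e-06). Psmd3 (Rpn3) rose by 33.2%, with a log2 fold change of 0.41 ± 0.05 (SE), and Psmd12 (Rpn5) by 10.3%. Psmd8 (Rpn12) fell by 19.7% and Psmd7 (Rpn8) fell by 12.8%, with log2 fold changes of -0.32 ± 0.06 and -0.20 ± 0.04 (SE). Psmd14, which encodes the deubiquitinase of the lid, was at -0.06 ± 0.04, and Psmd4, which encodes a ubiquitin receptor, was at 0.05 ± 0.05 (log2 fold change ± SE), and neither was called. Psmd1, which was counted in a locus merged with Armc9 and Gm21972, was called lower, at -0.14 ± 0.04 (SE), a call lost under upper-quartile scaling.

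Summed over the 31 tested genes of the 20S and 19S particles, the changes largely offset each other. The sum was 6091, 5910 and 5839 CPM in the WT libraries and 6389, 5959 and 5920 CPM in the Yme1l-/- libraries. These values overlapped, with only Yme1l-/- replicate 1 above all WT libraries, and the means of 5946 ± 130.1 and 6089 ± 260.1 CPM (SD, n = 3) differed by less than the SD of the Yme1l-/- libraries. Psmb6 alone went from a mean of 149.2 to 303.3 CPM, while the means of the sum differed by 143.0 CPM. The CPM in the sum were not scaled to transcript length. Of the 31 genes, 9 were higher and 10 were lower, against 33.6% and 34.1% of all tested loci. Libraries of a genotype differed in a way that members shared. Replicate 1 held the highest of the 3 Yme1l-/- values for 38 of the 43 members, whereas this was so for 39.1% of all tested loci. In WT, replicate 1 held the highest value for 30 members, against 33.7% of all tested loci. Without Yme1l-/- replicate 1 the members called higher numbered 16 in place of 17, and those called lower 15 in place of 10. This library held 34624075 counted fragments, and Yme1l-/- replicates 2 and 3 held 49351107 and 49157459.

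The remaining activators rose by less than the PA28 genes. Psme3, which encodes the nuclear activator PA28 gamma, was at 221.3, 216.6 and 215.7 CPM in WT and at 262.6, 239.8 and 233.7 CPM in Yme1l-/- libraries, a log2 fold change of 0.17 ± 0.05 (SE, edgeR adjusted p 0.00932). Psme4, which encodes the nuclear activator PA200, was at 174.5, 185.7 and 195.3 CPM in WT and at 214.4, 229.7 and 220.7 CPM in Yme1l-/- libraries, with a log2 fold change of 0.26 ± 0.05 (SE, edgeR adjusted p 0.000762). The libraries of the genotypes did not overlap for either gene. All 4 activator genes were thus called higher, against 33.6% of all tested loci. However, the calls of Psme3 and Psme4 did not hold when the medians of their chromosome were removed.

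The assembly chaperones guide subunits into place and are not part of the finished particle. Of their 7 tested genes, 3 were higher and 0 were lower, against 33.6% and 34.1% of all tested loci. Psmg4, whose product pairs with that of Psmg3 to guide the alpha ring, was at 7.76, 8.06 and 7.23 CPM in WT and at 16.2, 14.8 and 15.5 CPM in Yme1l-/- libraries. The libraries did not overlap, and the log2 fold change was 1.01 ± 0.08 (SE; 2.02-fold, edgeR adjusted p 9.4e-07). Its partner Psmg3, counted in a locus merged with Gm26938 and Tmem184a, was at 0.25 ± 0.10 (log2 fold change ± SE) and not called (edgeR adjusted p 0.0588), but DESeq2, upper-quartile scaling and a fit blocked by replicate gave a higher call, as did the fit without WT replicate 1. The alpha ring chaperone genes Psmg1 (0.09 ± 0.08) and Psmg2 (-0.04 ± 0.06, log2 fold change ± SE), whose products also act as a pair, were not called, and the sign for Psmg2 was positive under upper-quartile scaling. Among chaperones of the 19S base, Psmd9 (0.32 ± 0.05) and Psmd10 (0.22 ± 0.07) were higher, and Psmd5 (-0.08 ± 0.06, log2 fold change ± SE) was not called. A second locus named Psmd5 had at most 3 fragments in any library and was not tested. Psmf1, which encodes the inhibitor PI31, was at 37.3, 35.2 and 35.8 CPM in WT and at 62.6, 59.6 and 61.2 CPM in Yme1l-/- libraries, without overlap. It rose by 0.76 ± 0.05 (log2 fold change ± SE; 1.69-fold, edgeR adjusted p 1.1e-07).

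The median log2 fold change differed between chromosomes, and each member was therefore set beside the other loci of its chromosome. The members lay on 16 chromosomes. All 8 members on chromosome 11 were called higher, on a chromosome with a median log2 fold change of 0.36 over 1112 loci, of which 62.9% were called higher. These were Psmb3, Psmb6, Psmc5, Psmd3, Psmd11, Psmd12, Psme3 and Psme4. All 3 members on chromosome 12 (Psma3, Psma6 and Psmc1) were called lower, on a chromosome with a median of -0.44 over 509 loci, of which 63.7% were called lower. Of the 35 members on other chromosomes than 11, 9 were higher and 10 were lower, against 33.6% and 34.1% of all tested loci. Of the 43 members, 31 lay within 0.25 of the median of their chromosome on the log2 scale, and 28 lay within 0.25 of 0.

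With the chromosome medians removed in the fit, 17 members were called higher and 6 lower, against 31.1% and 31.7% of all tested loci. Only 11 of the higher and 3 of the lower calls were shared with the fit without this step, and 5 members were called in the opposite direction. Psme3 (-0.19), Psmc5 (-0.14) and Psmd12 (-0.21 on the log2 scale) were then called lower, and Psma6 (0.26) and Psmd7 (0.12) higher. Psma4 (0.29), Psmc6 (0.25), Psmd4 (0.17) and Psmg2 (0.15), which were not called without this step, were called higher. The calls of Psme4 (-0.10), Psmb3 (-0.10), Psmd3 (0.06), Psma3 (-0.10), Psmc1 (0.05), Psmb2 (-0.08), Psmd1 (0.01) and Psmd6 (-0.01) were lost. The PA28 genes lie on chromosome 14, which had a median of -0.17 and of which 16.2% of the loci were called higher, and in that fit their log2 fold changes were 1.29 (Psme1) and 1.60 (Psme2). Psmb6 remained called at 0.67, Psmg4 at 0.93, Psmf1 at 0.78 and Psmd11 at 0.15. Tested loci within 500 kb of these genes were also counted, a choice made after the values were seen. For Psmb6, 24 of 29 such neighbours were called higher, with a median log2 fold change of 0.63. For Psme1, 15 of 28 neighbours were called higher, with a median of 0.20, and Psme2 is among them. For Psmg4 these were 5 of 9 (median 0.46), for Psmd11 10 of 13 (median 0.53) and for Psmf1 3 of 9 (median 0.12).

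**Figure D3:**
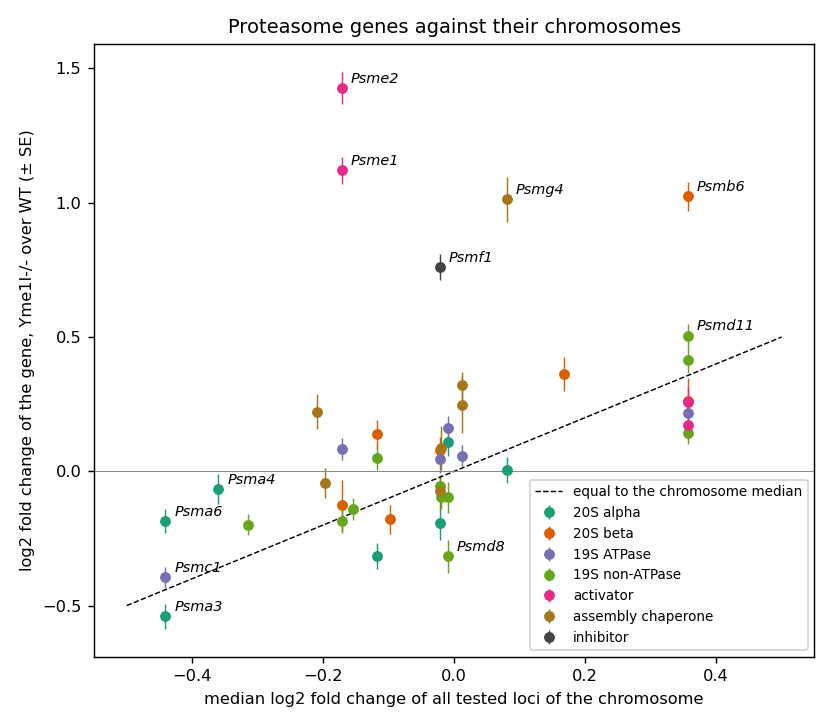
Log2 fold change of each tested proteasome gene (± SE, vertical axis) against the median log2 fold change of all tested loci of its chromosome (horizontal axis), with the dashed line where both are equal. Members on chromosomes 11 (0.36) and 12 (-0.44) follow the line loosely, whereas Psme1 and Psme2 lie far above it at a chromosome median of -0.17.

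Levels can be compared between genes only per length, for which the FPKM values in the authors' table (fragments scaled to transcript length and library size, combined over the cultures of a genotype by the authors) were used, without an error. The 30 tested 20S and 19S genes that were not merged with another gene lay between 71.2 (Psmd11) and 275.4 (Psmb3) FPKM in WT, with a median of 167.4. In Yme1l-/- MEFs they lay between 71.7 (Psma2) and 488.8 (Psmb6) FPKM, with a median of 153.0. Psmb6 went from 240.2 to 488.8 FPKM and was the highest of them in Yme1l-/- MEFs. Among the activators, the WT order by FPKM was Psme3 (88.6), Psme1 (50.9), Psme2 (34.6) and Psme4 (29.0). In Yme1l-/- MEFs it was Psme1 (112.0), Psme3 (99.8), Psme2 (93.6) and Psme4 (35.3 FPKM). The PA28 genes thus lay below the lowest 20S or 19S gene in WT and above it in Yme1l-/- MEFs. The assembly chaperones and Psmf1 lay at 17.2 to 35.9 FPKM in WT for the 6 genes with a single unmerged value.

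**Figure D4:**
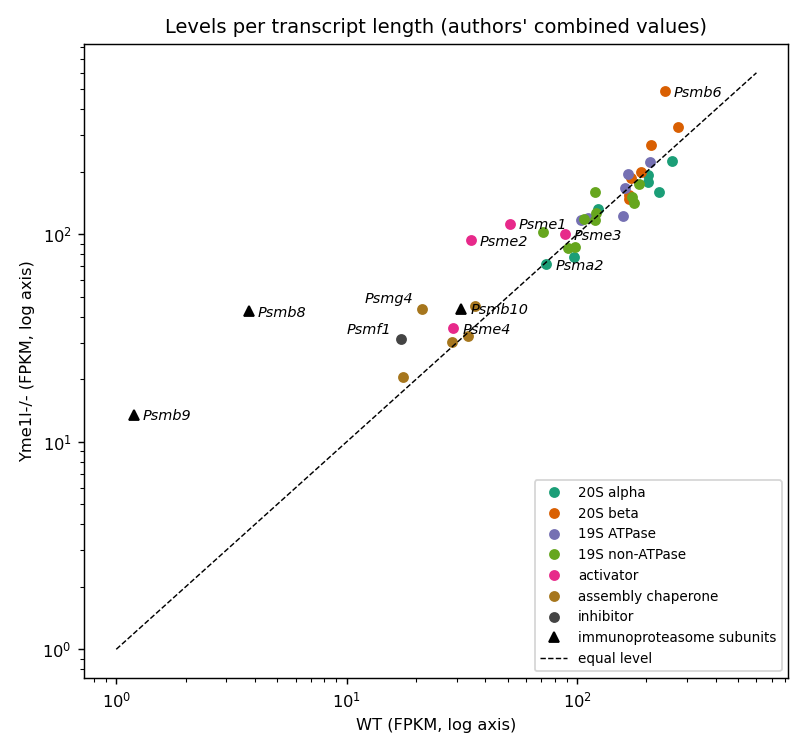
Levels in FPKM, as combined by the authors for each genotype, of the tested proteasome genes with a single unmerged value and of the immunoproteasome genes (triangles), with WT on the horizontal and Yme1l-/- on the vertical axis (both logarithmic) and the line of equal levels. Psme1 (50.9 to 112.0 FPKM), Psme2 (34.6 to 93.6 FPKM) and Psmb6 (240.2 to 488.8 FPKM) lie above the line, and Psmb8 and Psmb9 lie farthest from it.

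Other genes of the pathway were taken from a list of 31 tested loci, of which 10 were higher and 13 were lower, against 33.6% and 34.1% of all tested loci. Under upper-quartile scaling 11 were higher and 11 lower, and with chromosome medians removed 7 were higher and 13 lower. Of the immunoproteasome genes, Psmb8 and Psmb9 had larger log2 fold changes than any constitutive member. Psmb8, whose product takes the place of PSMB5 in interferon-treated cells, was at 4.16 ± 0.316 CPM in WT and 44.9 ± 2.13 CPM in Yme1l-/- MEFs (SD, n = 3) and rose by 3.43 ± 0.08 (log2 fold change ± SE). Psmb9, the counterpart of Psmb6, had 35 to 55 fragments per WT library and rose by 3.59 ± 0.15, and Psmb10, the counterpart of Psmb7, by 0.91 ± 0.08 (log2 fold change ± SE). In the authors' values Psmb10 went from 31.4 to 43.8 FPKM, a smaller rise than the 1.87-fold of the counts. Per length, Psmb8 at 42.5 FPKM was still below Psmb5 at 154.5 FPKM in Yme1l-/- MEFs. Pomp, which encodes a chaperone of beta subunit assembly, was at -0.14 ± 0.05 (SE) and called lower, a call lost under upper-quartile scaling and without WT replicate 1 or Yme1l-/- replicate 2 or 3. Nfe2l1, which encodes a transcription factor for proteasome genes (NRF1), rose by 0.32 ± 0.04 (SE) but lies on chromosome 11 and was at -0.04, and not called, with chromosome medians removed. The lowest values in the list were those of Uchl5 (-0.74 ± 0.05) and Usp14 (-0.57 ± 0.05, log2 fold change ± SE), which encode deubiquitinases that bind the 19S particle. Of 10 tested genes for assembly and associated factors, 1 was higher and 6 were lower. Of 8 genes for delivery of substrates, 2 were higher and 3 were lower, and of 5 for ubiquitin and its activating enzymes, 1 was higher and 3 were lower.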

How the data were processed

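Per the labels and the study's methods, RNA of 6 cultures was poly(A)-selected, made into stranded libraries, mapped to GRCm38 (mm10) with HISAT2 2.0.4, assembled with StringTie 1.3.3 and compared with Cuffdiff 2.2.1. The deposited count table holds raw fragment counts per assembled locus. The deposited comparison table holds FPKM values combined per genotype by the authors, used here as levels, and fold changes and p-values of the authors' own test, which were not used. The handling of fragments with several matches in the genome is not given in the sources used here, so values of near-identical copies are uncertain. Overlapping genes were merged into a locus by the authors, which applied to 2 members. Coordinates came from the same table, with starts converted to count from 1.

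The counts were tested with edgeR 4.0.16 in R 4.3.3 (filterByExpr with a minimum count of 10, TMM scaling, robust quasi-likelihood test, two-sided, Benjamini-Hochberg over all 13867 loci) without covariates, and a call is an adjusted p under 0.05. The standard error (SE) is the log2 fold change divided by the root of the F statistic. CPM refers to the scaled library size. The procedure was run on simulated counts in which few loci changed, evenly in both directions. In these data 67.7% of loci were called, a setting that the simulation did not cover. Depth limits precision by counting error only, and p-values measure the spread between cultures of these lines. Members and lists were chosen with earlier results of these data known. Named genes were the PA28 and active-site genes, the 2 highest and 2 lowest per role group (all in smaller groups), untested members, and in the related list the immunoproteasome genes, Psme2b, Pomp, Nfe2l1 and the extremes. Other members were added after their values were seen. Alternatives were RLE and upper-quartile scaling, DESeq2 1.42.0, other count filters, the replicate number as a block, removal of chromosome medians, and leaving out each library, merged loci or Psmf1.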

Additional observations from a re-analysis of the deposited data

How the results depend on the processing

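Psme1 and Psme2 kept their direction and call under all 13 alternatives, at 1.09 to 1.29 and 1.38 to 1.60 on the log2 scale, as did Yme1l1. The members called higher numbered 15 to 22 and the median of the members 0.04 to 0.14. Those called lower numbered 6 with chromosome medians removed, and 8 to 15 when single libraries were left out. No member called as reported was called in the opposite direction under another scaling, filter, test, block or omission. With chromosome medians removed 13 members changed sign, by construction through the subtracted median: Psma4 (0.29), Psma6 (0.26), Psmb3 (-0.10), Psmd1 (0.01), Psmd12 (-0.21), Psmb5 (0.0447), Psma2 (-0.0747), Psmc1 (0.0463), Psmc5 (-0.139), Psmd7 (0.117), Psme3 (-0.186), Psme4 (-0.0976) and Psmg2 (0.153). Of the named related genes Nfe2l1 (-0.0368) did so too. Values near 0 changed sign elsewhere: Psmg2 was at 0.0145 under upper-quartile scaling, Psma2 at -1.24e-05 with nearly no count filter, and with single libraries left out Psma2 lay between -0.0353 and 0.0402 and Psmc3 between -0.00597 and 0.0834. Whether replicate numbers paired the cultures cannot be decided from 3 libraries per genotype. Over all tested loci, deviations of same-numbered cultures correlated at 0.14, -0.09 and 0.05, and those of differently numbered cultures at -0.18 to 0.16. A fit with a replicate block called 19 members higher and 12 lower, and 9794 of all loci. All 43 tested members had at least 236 fragments in every library, whereas Psma8, Psmb11 and a second Psmd5 locus were too low to be tested at this depth.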

Other observations

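The immunoproteasome genes were also set against the constitutive genes whose products they replace, in fragments and not per length. Psmb8 had 3.20, 3.80 and 3.16 fragments per 100 fragments of Psmb5 in WT, and 32.1, 43.8 and 45.6 in Yme1l-/- MEFs (replicates 1 to 3). Psmb9 had 0.669 to 1.15 fragments per 100 of Psmb6 in WT and 4.91 to 5.67 in Yme1l-/- libraries, although Psmb6 itself rose. Psmb10 had 7.53 to 8.72 fragments per 100 of Psmb7 in WT and 14.1 to 14.9 in Yme1l-/- libraries. The genotypes did not overlap for any of these 3 pairs. The ratio of the summed CPM of 20S genes to that of 19S genes lay between 0.594 and 0.615 in WT and between 0.612 and 0.657 in Yme1l-/- libraries, and these ranges overlapped.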
